A study of Mus musculus with 92 samples.

Results

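Progression of muscle gene expression was examined in the left tibialis anterior of G93A-SOD1 mice by setting 7 arrays of animals aged 100 days against 8 arrays of animals aged 70 days. These 15 arrays were chosen by their titles, from 92 arrays of muscle, blood and lumbar spinal cord. G93A-SOD1 mice carry a human SOD1 transgene with the G93A substitution, and every mouse of the 4 muscle groups has the strain label B6.Cg-Tg(G93A-SOD1)1Gur/J. Wild type littermates, which do not carry the transgene, gave 7 muscle arrays at 100 days and 8 at 70 days and served as the control for age. The labels name no treatment for any of these groups. Replicates are numbered samples of one genotype and age, with no litter, sex or batch given, so p-values measure the spread between these samples. Each array held total RNA of the whole muscle, in which fewer cells of a type and less RNA per cell cannot be told apart.

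G93A-SOD1 mice model amyotrophic lateral sclerosis: their motor neurons degenerate, and axon terminals withdraw from the neuromuscular junction. A muscle fibre that loses its nerve places acetylcholine receptors outside the former junction, including the fetal receptor that holds the gamma subunit in place of epsilon. It also induces Runx1, Ncam1, Gadd45a and other genes that innervated adult fibres express weakly. The tibialis anterior is built mainly of fast, glycolytic fibres, and macrophages and fibro-adipogenic progenitors lie between the fibres.

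No gene passed the test of 100 against 70 days within G93A-SOD1 muscle. Of 9089 genes tested with limma, 0 were called at an adjusted p under 0.05, a background of 0%, and the smallest adjusted p was 0.21. At an unadjusted p under 0.05 there were 671 genes, or 7.38% of those tested, where 454 would be expected without any difference; 310 of them (3.41%) were higher at 100 days and 361 (3.97%) were lower. Log2 fold changes ran between -1.32 and 1.76 with a median of -0.03, and 43.6% of all genes lay above 0. No gene had all 7 arrays at 100 days above all 8 arrays at 70 days. A single probe without a gene symbol, ILMN_1249306, had all 7 below, which is 0.011% of the genes tested; it was named after its values were seen. Leaving out replicate 2 of the 70 day group gave 5 genes called higher (Lbp, Apod, B2m, Alox5ap and C1qc) and 1 called lower (Ehd1), and leaving out replicate 1 of that group gave Ehd1 alone.

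Defining markers of skeletal muscle were strongly expressed at both ages. Ckm, the muscle creatine kinase, averaged 14.41 ± 0.24 at 100 days and 14.51 ± 0.30 at 70 days in log2 intensity, and Acta1, skeletal actin, averaged 14.79 ± 0.10 at 100 days and 14.88 ± 0.13 at 70 days. Of 16 skeletal muscle markers listed, 13 were measured, and their log2 fold changes ran between -0.46 and 0.25, with none at an unadjusted p under 0.05. The lowest of them belonged to Myh4, a fast fibre myosin. The Sod1 probe averaged 11.76 ± 0.25 at 100 days and 11.55 ± 0.12 at 70 days in G93A-SOD1 muscle (SD, n = 7 and 8), against 11.43 ± 0.16 and 11.39 ± 0.14 in wild type muscle at the same ages. The labels and files do not say if the probe binds transcripts of the human gene, and its level was not taken as a check of genotype. Between 8552 and 11577 probes were detected on the 15 G93A-SOD1 arrays. The 100 day arrays 2 and 3 stood apart from the other 100 day arrays: they had the most probes detected, 11384 and 11577, a rank correlation of 0.987 with each other, and second component scores of -31.5 and -31.6. Wild type replicates 2 and 1 at 100 days lay in the same direction, at -28.7 and -16.9. So did wild type replicate 3 at 70 days, at -14. Without the G93A-SOD1 100 day arrays 2 and 3, 0 genes were called and 445 had an unadjusted p under 0.05.

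Genes of the denervation response were among those that varied most between arrays of one age. Chrng encodes the gamma subunit of the fetal acetylcholine receptor. Its log2 intensity at 100 days was 11.28, 10.05, 10.45, 8.91, 6.98, 11.13 and 7.93 in replicates 1 to 7. At 70 days it was 10.65, 11.12, 4.59, 4.64, 11.94, 11.41, 4.53 and 4.62 in replicates 1 to 8. All 7 arrays at 100 days and replicates 1, 2, 5 and 6 at 70 days were therefore far above the wild type range of 4.42 to 4.87, while replicates 3, 4, 7 and 8 at 70 days lay inside it. The probe was detected on 7 of 7 arrays at 100 days, on 4 of 8 at 70 days and on none of the 15 wild type arrays. Its SD of 3.59 at 70 days was the widest of all genes tested, against 1.64 at 100 days. The age difference was 1.59 on the log2 scale (SE 0.97, limma adjusted p = 0.758), a fold of 3.02 that the test did not separate from none. That SE rests on an estimate of the spread shared by all 4 groups, and the wild type SDs of Chrng were 0.02 and 0.14. It is therefore smaller than the G93A-SOD1 groups alone would give. The same limit holds for the SEs and limma p-values of other genes whose spread was wider in G93A-SOD1 than in wild type muscle. These include genes undetected in wild type muscle and genes detected there, such as Ncam1, Aif1l and Ankrd1.

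The 300 bases of RefSeq around the annotated start of Chrng (GRCm38.p6, chr1:87205561-87205860, plus strand, 250 bases before the start and 50 after it) are shown because this gene varied most. Those of Chrnb1, a receptor subunit that both junctional and extrajunctional receptors contain (chr11:69795888-69796187, minus strand), are shown beside them. Capitals mark CAGCTG, an E-box of the kind that myogenic factors bind, which reads the same on both strands.
Chrng: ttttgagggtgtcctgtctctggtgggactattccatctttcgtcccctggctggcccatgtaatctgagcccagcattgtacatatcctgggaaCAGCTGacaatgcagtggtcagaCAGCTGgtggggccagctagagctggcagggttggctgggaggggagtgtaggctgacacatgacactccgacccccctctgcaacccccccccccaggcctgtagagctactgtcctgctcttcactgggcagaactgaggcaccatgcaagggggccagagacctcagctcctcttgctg
Chrnb1: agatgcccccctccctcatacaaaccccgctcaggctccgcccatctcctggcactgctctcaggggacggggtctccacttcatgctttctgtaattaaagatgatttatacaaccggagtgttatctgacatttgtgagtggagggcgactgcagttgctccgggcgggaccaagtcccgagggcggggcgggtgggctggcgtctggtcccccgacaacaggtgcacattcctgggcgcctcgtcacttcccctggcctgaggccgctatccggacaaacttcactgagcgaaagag
Chrng holds 2 matches, which begin 155 and 132 bases before the start, and Chrnb1 holds no CAGCTG. Other E-box sequences were not counted in either promoter. The printed Chrnb1 sequence does hold caggtg, which has the E-box form CANNTG, where N is any base. Chrnb1 therefore lacks CAGCTG here but does not lack an E-box. Of 15 measured denervation response genes, 11 matched a promoter in the table, and 2 of them, Chrng and Cdkn1a, hold the motif at the first start listed. Of all 32851 promoters of this length, 16.3% hold CAGCTG at least once and 1.9% hold it 2 or more times. A match is a description of the letters and shows no binding.

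Among the other receptor genes, Chrnd (delta subunit) averaged 6.27 ± 1.05 at 100 days and 5.77 ± 1.02 at 70 days on the log2 scale and was detected on 4 arrays of each age. Chrnb1 (beta subunit) averaged 9.40 ± 0.57 at 100 days and 9.25 ± 1.14 at 70 days, a difference of 0.15 with SE 0.33. The epsilon subunit of the adult receptor, Chrne, averaged 6.90 at 100 days and 6.66 at 70 days, against 6.76 and 6.77 in wild type muscle. None of these 4 receptor genes, Chrng included, passed the test of age.

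Runx1, a transcription factor induced in denervated muscle, was 5.83 to 9.41 at 100 days with a median of 8.08, and 4.56 to 8.83 at 70 days; all 7 arrays at 100 days and 6 of 8 at 70 days exceeded every wild type array. Its age difference was 0.99 on the log2 scale (SE 0.60, limma adjusted p = 0.758). Ncam1, a cell adhesion molecule that spreads along denervated fibres, averaged 8.84 ± 1.17 at 100 days and 8.12 ± 1.57 at 70 days, against 6.39 ± 0.27 and 6.44 ± 0.32 in wild type muscle. Its 70 day values were 9.74, 9.36, 9.82 and 9.40 in replicates 1, 2, 5 and 6 and between 6.44 and 6.77 in the other arrays of that age. Gadd45a, a growth arrest gene induced in atrophying fibres, was 12.77, 12.91, 12.64, 11.65, 11, 12.85 and 10.96 at 100 days. At 70 days it was 12.44, 12.98, 10.27, 9, 13.01, 12.88, 9.68 and 10.84, so the same 4 replicates were highest as for Chrng, and the ages overlapped. Replicates 3 and 8 at 70 days, at 10.27 and 10.84, also exceeded the highest wild type array, at 9.88.

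**Figure D1:**
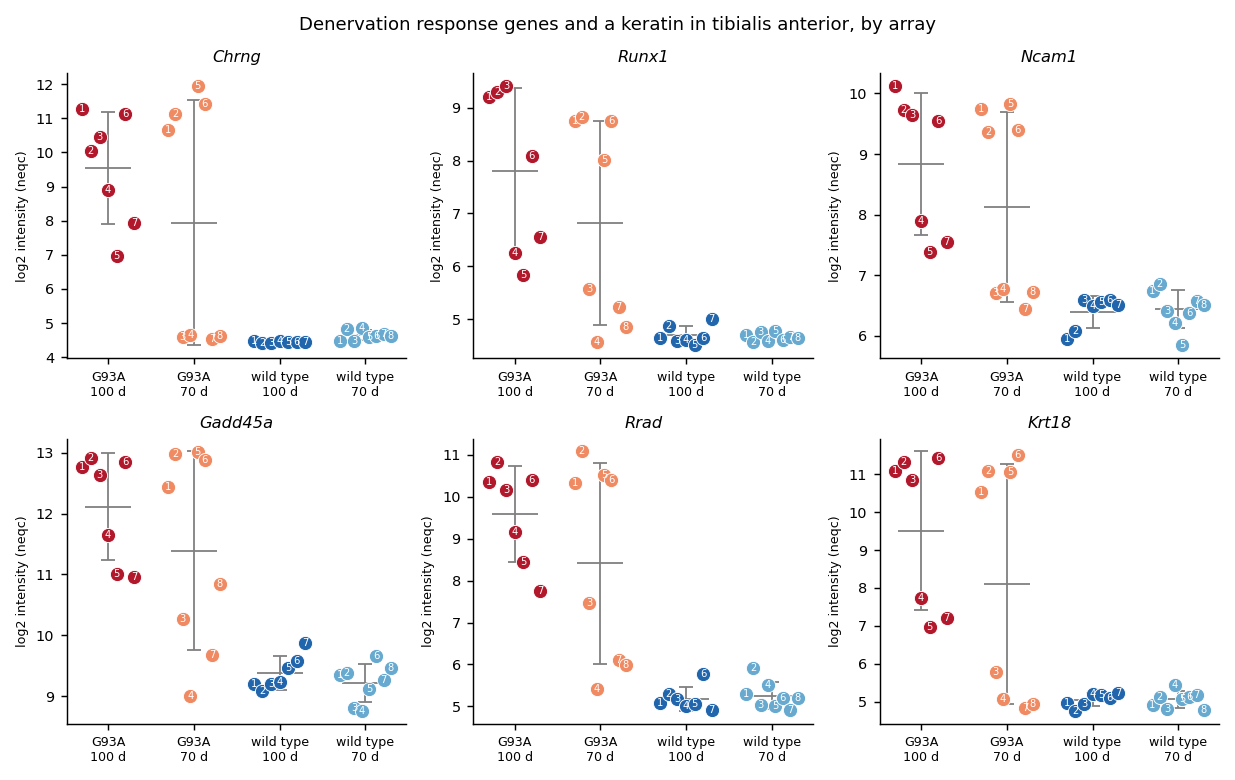
Log2 intensity of Chrng, Runx1, Ncam1, Gadd45a, Rrad and Krt18 on each muscle array, grouped by genotype and age, with replicate numbers inside the points and grey bars for the mean ± SD. Replicates 1, 2, 5 and 6 at 70 days are high in all 6 panels, and the 7 arrays at 100 days lie above both wild type groups. For Runx1, Gadd45a, Rrad and Krt18 some of the other 70 day arrays also lie above every wild type array.

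Rrad, a small GTPase of muscle, averaged 9.59 ± 1.15 at 100 days and 8.41 ± 2.40 at 70 days, with a difference of 1.18 (SE 0.66, limma adjusted p = 0.719). Ankrd1, an ankyrin repeat protein of the sarcomere, averaged 10.35 ± 1.91 at 100 days and 9.08 ± 1.88 at 70 days, with a difference of 1.27 (SE 0.67, limma adjusted p = 0.678). Hdac4, a deacetylase that represses its targets after denervation, differed by 0.42 (SE 0.39), Cdkn1a by 0.54 (SE 0.50) and Sln by 0.25 (SE 0.29). Myog, the myogenic factor myogenin, averaged 5.44 ± 0.72 at 100 days and 5.38 ± 0.88 at 70 days and was detected on 4 arrays of each age. Tnfrsf12a, Cdh15 and Fgfbp1, also on the list, differed by 0.06, -0.14 and -0.17.

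Of 27 denervation response genes listed, 26 had a probe and 15 passed the detection filter, which some passed only through the G93A-SOD1 arrays on which they were high. The 15 had a median log2 fold change of 0.50, with 13 above 0 (beside 43.6% of all genes), none called and none at an unadjusted p under 0.05. The same genes had a median of -0.06 for 100 against 70 days in wild type muscle, where Chrng, Chrnd, Myog, Runx1 and Sln were detected on none of the 15 arrays. As a mean over the list, relative to wild type muscle, the 100 day arrays read 2.8, 2.71, 2.70, 1.38, 0.80, 2.67 and 0.95 log2 units in replicates 1 to 7. The 70 day arrays read 2.54, 2.81, 0.54, 0.08, 2.54, 2.73, 0.08 and 0.34 in replicates 1 to 8, and the wild type arrays lay between -0.19 and 0.26. Replicates 4, 5 and 7 at 100 days thus had values between the high arrays of both ages and the wild type range, whereas replicates 4 and 7 at 70 days lay inside that range. The list's median was 0.14 with no detection filter and 0.20 without the 100 day arrays 2 and 3, and ran between 0.22 and 0.72 as each G93A-SOD1 array was left out in turn.

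Each age was also placed against the range of all 15 wild type arrays. On 75 genes, 0.825% of those tested, all 7 G93A-SOD1 arrays at 100 days lay above all 15 wild type arrays, and on 18 genes (0.198%) all 7 lay below. With median centring in place of quantile normalization these counts were 22 and 0. No gene had all 8 arrays at 70 days above every wild type array, and none had all 8 below. The 75 genes were chosen by the values of the 100 day and wild type arrays, among genes that passed a detection filter counting all 30 muscle arrays; with no detection filter the counts were 76 and 18. Replicates 1, 2, 5 and 6 exceeded every wild type array on 74, 73, 72 and 66 of them, and replicates 3, 4, 7 and 8 on 19, 11, 8 and 8. Of the 75 genes, 38 were above the wild type range in replicates 1, 2, 5 and 6 and in no other array at 70 days. On the 18 low genes, replicates 1, 2, 5 and 6 were below every wild type array for 18, 17, 15 and 12, and replicates 3, 4, 7 and 8 for 5, 7, 3 and 2. Over all 9089 genes, the arrays at 70 days exceeded the wild type range on 15.7%, 17.8%, 17.4% and 18.5% in replicates 1, 2, 5 and 6, and on 3.41%, 4.36%, 3.84% and 5.33% in replicates 3, 4, 7 and 8. The count of 75 rested on 2 arrays at 100 days: it was 122 without replicate 5 and 128 without replicate 7, and the count of 18 was 47 and 66 without them. The SD was larger at 70 than at 100 days for 58% of genes in G93A-SOD1 and for 52% in wild type muscle.

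**Figure D2:**
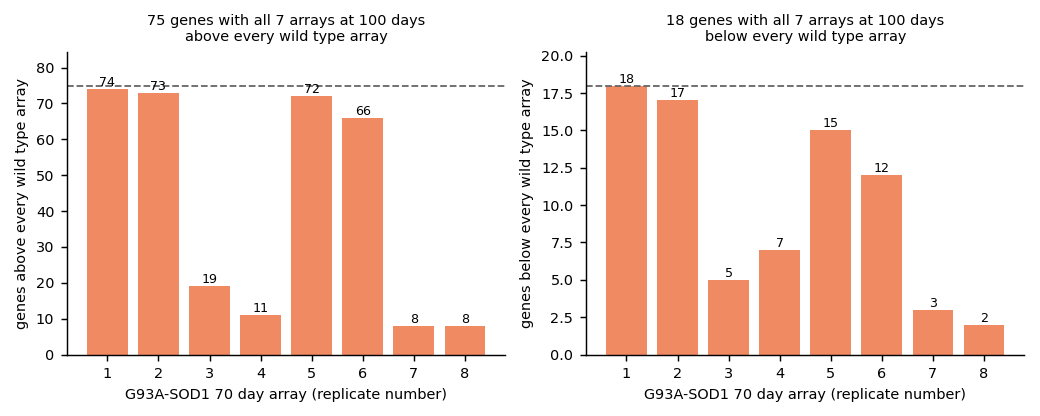
Bars give, for each G93A-SOD1 array at 70 days, how many of 75 genes lay above every wild type array and how many of 18 lay below, with the dashed line at the full number. The genes were those on which all 7 arrays at 100 days lay outside the wild type range, and replicates 1, 2, 5 and 6 come close to that number on the high genes. With median centring the genes so chosen numbered 22 and 0.

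Of the 75 genes, which are 0.825% of all genes tested, 69 had a symbol. The denervation response list, with 15 measured members, held 8 of them: Chrng, Chrnd, Ncam1, Runx1, Gadd45a, Sln, Hdac4 and Rrad. This count is a description only. The 75 were chosen by these high values, and the list with earlier results known. Chrng, Chrnd, Runx1 and Sln also passed the detection filter only through G93A-SOD1 arrays. Chrnd and Sln were not detected on replicates 4, 5 and 7 at 100 days or on any wild type array, so on those arrays their place above wild type is an order among values below detection. Krt8 and Krt18, keratins that pair into intermediate filaments, were among the others. Krt18 was 11.10, 11.32, 10.85, 7.74, 6.96, 11.42 and 7.21 at 100 days and 10.53, 11.09, 5.78, 5.07, 11.06, 11.51, 4.82 and 4.95 at 70 days, against at most 5.45 on wild type arrays. Its age difference was 1.41 on the log2 scale with SE 0.93. Aif1l averaged 10.62 ± 1.23 at 100 days and 9.15 ± 2.89 at 70 days, with a difference of 1.47 (SE 0.80). Gdnf, a trophic factor for motor neurons, averaged 6.84 ± 0.77 at 100 days and 6.29 ± 1.30 at 70 days, and was detected on 7 of 7 and 5 of 8 arrays. Cd82, a tetraspanin, and Tubb6, a tubulin, exceeded all wild type arrays on 7 of 7 arrays at 100 days and on 7 of 8 at 70 days. Atp1b2, a subunit of the sodium pump, was among the 18 low genes, at 9.21 ± 0.37 at 100 days and 9.76 ± 0.41 at 70 days, against 10.16 and 10.40 in wild type muscle. Krt18, Krt8, Aif1l, Cd82 and Tubb6 were named after their values were seen.

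Tnni1, slow troponin I, was 11.60, 11.17, 11.23, 7.71, 7.12, 11.37 and 8.05 at 100 days. At 70 days it was 11.29, 10.85, 5.83, 6.72, 8.93, 10.44, 7.00 and 6.09, and its age difference was 1.36 (SE 0.79, limma adjusted p = 0.732). The high arrays were replicates 1, 2, 3 and 6 at 100 days and 1, 2 and 6 at 70 days, with replicate 5 at 70 days between them and the rest. Tnnt1 and Tnnc1, the slow forms of troponin T and C, differed by 0.80 (SE 0.67) and 1.10 (SE 0.76), and Atp2a2, the slow calcium pump of the reticulum, by 0.85 (SE 0.52). Mybpc1, slow myosin binding protein C, was the slow fibre gene with the smallest p: it averaged 12.74 ± 0.25 at 100 days and 12.48 ± 0.14 at 70 days (unadjusted p = 0.0186, limma adjusted p = 0.611). Of 24 slow fibre genes listed, 21 were measured, with a median log2 fold change of 0.19 beside 0.07 in wild type muscle. Of these, 15 lay above 0 and 1 was higher at an unadjusted p under 0.05. Over all genes, 43.6% lay above 0 and 3.41% were higher at that level.

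Myh4, the myosin heavy chain of the fastest fibres, averaged 11.30 ± 1.12 at 100 days and 11.76 ± 1.54 at 70 days in G93A-SOD1 muscle, against 13.01 and 12.95 in wild type muscle. It was lowest at 9.93, 10.83, 10.65 and 10.36 in replicates 1, 2, 3 and 6 at 100 days and at 9.29 and 9.51 in replicates 1 and 2 at 70 days. Gpd1, a cytosolic glycerol phosphate dehydrogenase abundant in fast fibres, averaged 12.68 ± 1.06 at 100 days and 13.06 ± 0.91 at 70 days, a difference of -0.37 that was 0.02 without the 100 day arrays 2 and 3. Of 24 fast fibre genes, 19 were measured, with a median of -0.09 beside 0.03 in wild type muscle. Of these, 15 lay below 0 and none was at an unadjusted p under 0.05, where 5122 of all 9089 genes lay below 0. Without the 100 day arrays 2 and 3 the medians of the slow and fast lists were -0.01 and 0.01. The 34 measured genes of glycolysis and glycogen had a median of -0.04, with 0 higher and 2 lower at an unadjusted p under 0.05. The 61 of oxidative phosphorylation had a median of -0.03 and none in either direction. Over all genes, 3.41% were higher and 3.97% lower at that level.

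**Figure D3:**
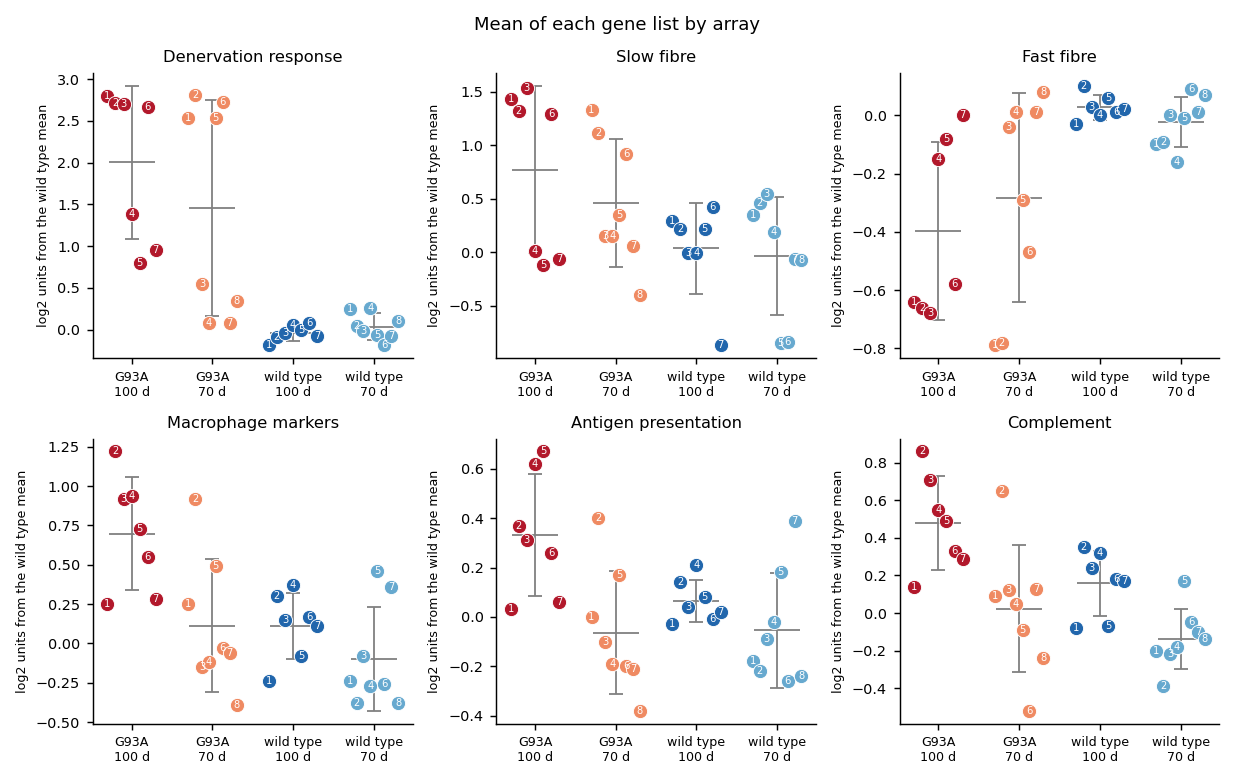
Mean of 6 gene lists on each muscle array, in log2 units from the mean of wild type muscle, with replicate numbers inside the points and grey bars for the mean ± SD. The denervation, slow fibre and fast fibre lists divide the 70 day G93A-SOD1 arrays widely, and the macrophage, antigen presentation and complement lists are higher at 100 than at 70 days on average, with overlap. Some lists share genes, such as C1qc in the macrophage and complement lists and Sln in the denervation and slow fibre lists.

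Of the 49 gene lists, that of macrophage markers held the most genes higher at 100 days at an unadjusted p under 0.05, although none was called. Of 41 listed, 33 had a probe and 21 were measured; 19 lay above 0, 13 were higher at an unadjusted p under 0.05 and none was lower, beside 3.41% of all genes that were higher at that level. Their median log2 fold change was 0.51 in G93A-SOD1 muscle and 0.16 in wild type muscle, where 3 of 21 were higher at that level, beside 5.19% of all genes higher and 6.62% lower. The defining markers Cd68 and Csf1r have no probe named for them, and Ptprc was below the detection filter. The list mean relative to wild type muscle was 0.25, 1.22, 0.92, 0.94, 0.73, 0.55 and 0.28 in the 100 day arrays. In the 70 day arrays it was 0.25, 0.92, -0.15, -0.12, 0.49, -0.03, -0.06 and -0.39, and wild type arrays ran between -0.38 and 0.46. Replicate 1 at 100 days, the highest for the denervation list, was the lowest for macrophage markers. At 70 days, however, replicates 1, 2, 5 and 6 were the highest for both lists. For macrophage markers replicate 6, at -0.03, was close to replicate 7, at -0.06. Without the 100 day arrays 2 and 3 the list's median was 0.39, and those of antigen presentation and complement were 0.41 and 0.34. With the deposited series matrix values the medians of the 3 lists were 0.19, 0.13 and 0.12.

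Lyz2, the lysozyme of macrophages, was 7.48, 10.13, 9.26, 9.51, 9.24, 7.88 and 8.14 at 100 days and 7.53, 8.20, 7.18, 7.30, 7.43, 5.39, 7.88 and 6.41 at 70 days. The difference was 1.64 on the log2 scale (SE 0.39, limma adjusted p = 0.404), and it was 1.55 (SE 0.39) in wild type muscle. The complement components C1qc and C1qb, which macrophages make, differed by 1.08 (SE 0.31, limma adjusted p = 0.435) and 0.98 (SE 0.30, limma adjusted p = 0.484). Replicate 2 at 70 days, at 7.94 for C1qc, was as high as the highest array at 100 days, and the next 70 day array stood at 6.46. In wild type muscle C1qc averaged 6.59 at 100 days and 5.94 at 70 days, and C1qb 6.82 and 6.12. Fcer1g, a signalling chain of Fc receptors, differed by 0.83 (SE 0.27), Adgre1, the F4/80 antigen, by 0.49 (SE 0.21) and Aif1 by 0.39 (SE 0.14). Mrc1, the mannose receptor, averaged 7.82 ± 0.40 at 100 days and 7.37 ± 0.56 at 70 days.

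For antigen presentation and complement, the shares to read beside the counts were 43.6% of all genes above 0 and 3.41% higher at an unadjusted p under 0.05 in G93A-SOD1 muscle, and 5.19% higher in wild type muscle. Antigen presentation genes had a median of 0.40, with 17 of 19 measured members above 0, 10 higher and 0 lower at an unadjusted p under 0.05, and none called; in wild type muscle the median was 0.10 and 2 were higher. Cd74, the invariant chain of class II molecules, was 9.62, 10.65, 10.58, 11.20, 10.76, 10.45 and 9.47 at 100 days. At 70 days it was 9.49, 10.72, 9.20, 9.18, 9.78, 9.15, 8.79 and 8.32, a difference of 1.06 (SE 0.30, limma adjusted p = 0.435). Only replicate 2 at 70 days reached the middle of the 100 day values. In wild type muscle Cd74 averaged 9.70 at 100 days and 9.21 at 70 days. The class II chains H2-Ab1 and H2-Eb1 differed by 0.90 (SE 0.33) and 0.87 (SE 0.30), and Psme2, an activator of the proteasome, by 0.43 (SE 0.14). B2m, the light chain of class I molecules, was 11.81 ± 0.22 at 100 days and 11.25 ± 0.41 at 70 days, a difference of 0.56 (SE 0.14, limma adjusted p = 0.404) beside 0.49 in wild type muscle. Of 12 measured complement genes, 11 lay above 0, with a median of 0.40 beside 0.29 in wild type muscle, 5 were higher at an unadjusted p under 0.05 and 1, Cd59a, was lower. The complement and macrophage lists share genes, C1qc among them, so their counts are not separate results. Serping1, the C1 inhibitor, differed by 0.70 (SE 0.21) in G93A-SOD1 and by 0.73 in wild type muscle.

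**Figure D4:**
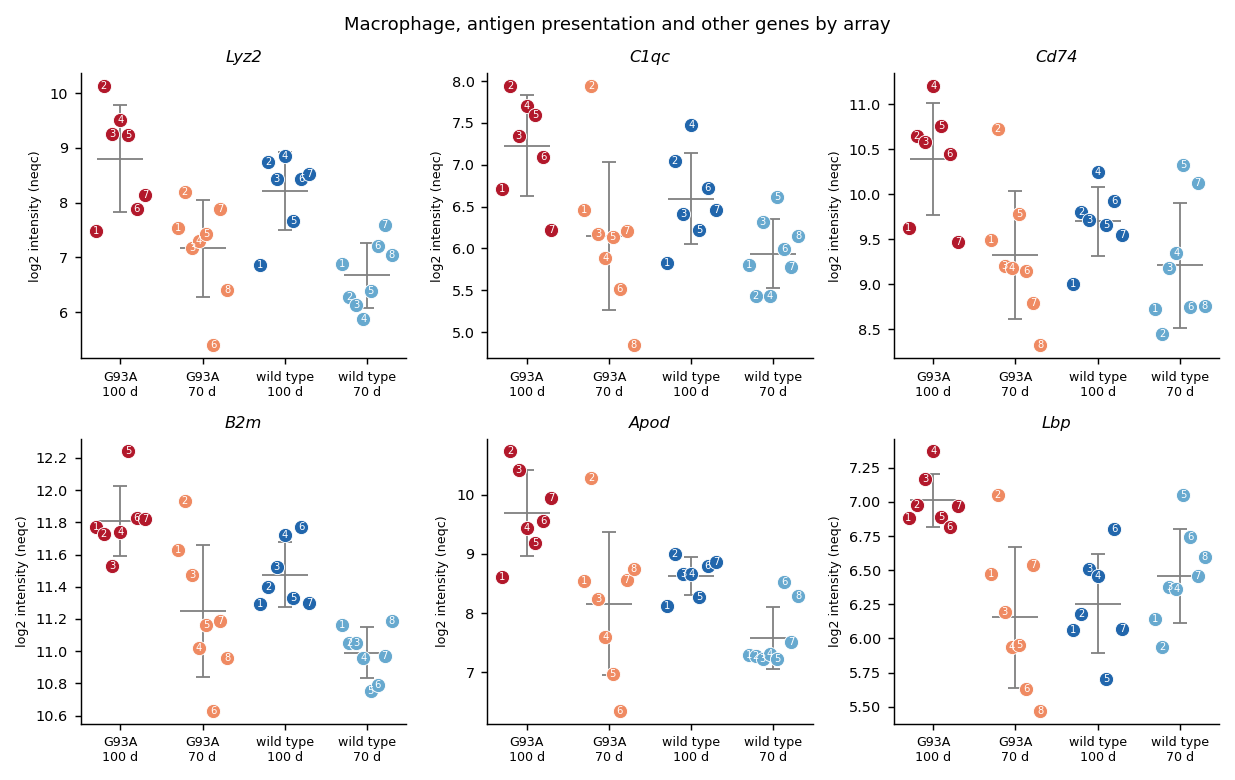
Log2 intensity of Lyz2, C1qc, Cd74, B2m, Apod and Lbp on each muscle array, grouped by genotype and age, with replicate numbers inside the points and grey bars for the mean ± SD. Replicate 2 is the highest 70 day G93A-SOD1 array in each panel, and Lyz2, C1qc, Cd74, B2m and Apod average higher at 100 than at 70 days in both genotypes.

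The 5 genes with the smallest p among those higher at 100 days were Lbp, Lyz2, Rbm3, Arpc1b and Apod. Lbp, a lipopolysaccharide binding protein, was 6.88, 6.98, 7.17, 7.37, 6.89, 6.82 and 6.97 at 100 days and 6.47, 7.05, 6.19, 5.94, 5.95, 5.63, 6.54 and 5.47 at 70 days. The difference was 0.86 (SE 0.19, limma adjusted p = 0.38), and only replicate 2 at 70 days reached the 100 day values. Without that array the difference was 0.99 with a limma adjusted p of 0.019, which ran between 0.019 and 1 over all settings tried. Rbm3, a cold inducible RNA binding protein, averaged 9.69 ± 0.42 at 100 days and 8.83 ± 0.62 at 70 days in G93A-SOD1 muscle, against 8.93 and 8.17 in wild type muscle. Arpc1b, a subunit of the actin nucleating Arp2/3 complex, averaged 8.91 ± 0.26 at 100 days and 8.44 ± 0.22 at 70 days. Apod, a lipid carrier, differed by 1.54 (SE 0.38, limma adjusted p = 0.404), and by 1.05 (SE 0.38) in wild type muscle; without replicate 2 at 70 days its difference was 1.84 and its limma adjusted p was 0.019, within 0.019 to 1 over all settings.

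Among genes lower at 100 days, Ehd1, Rnf8, Jsrp1, Mvb12b and Rxrb had the smallest p. Ehd1, a protein of endosomal recycling, was 6.10, 5.27, 5.60, 5.72, 5.43, 6.16 and 5.56 at 100 days and 5.78, 6.25, 6.50, 6.53, 6.59, 6.85, 6.46 and 6.71 at 70 days. The ages overlapped only through replicate 1 at 70 days, and the difference of -0.77 (SE 0.15, limma adjusted p = 0.21) stood beside -0.73 (SE 0.15) in wild type muscle. Without replicate 1 it was -0.86 with a limma adjusted p of 0.014, within 0.014 to 1 over all settings. Jsrp1, a junctional protein of the sarcoplasmic reticulum, averaged 9.62 ± 0.27 at 100 days and 9.99 ± 0.18 at 70 days, against 10.09 and 10.26 in wild type muscle. Rnf8, a ubiquitin ligase of the DNA damage response, differed by -0.47 (SE 0.12), Mvb12b by -0.52 (SE 0.14) and Rxrb, a retinoid receptor, by -0.32 (SE 0.09). Smad3, which carries TGF-beta signals, differed by -0.35 (SE 0.10), and Fbxo31, a ubiquitin ligase subunit, by -0.30 (SE 0.08) beside -0.26 in wild type muscle.

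No gene listed for the support cells between the fibres was called. Of 14 measured fibroblast and fibro-adipogenic progenitor markers, 13 lay above 0, with a median of 0.32 beside 0.23 in wild type muscle and 4 higher at an unadjusted p under 0.05, where 43.6% of all genes lay above 0 and 3.41% were higher at that level. Dpt and Thy1, markers of these cells, differed by 0.48 (SE 0.17) and 0.47 (SE 0.17). The matrix protein Fn1 averaged 6.84 ± 0.34 at 100 days and 6.11 ± 0.57 at 70 days. The 13 measured collagens had a median of 0.15, beside -0.21 in wild type muscle, and none at an unadjusted p under 0.05. Adipoq, the adipocyte hormone adiponectin, differed by 1.11 (SE 0.55) in G93A-SOD1 and by 1.29 in wild type muscle. Vim, an intermediate filament protein of support and regenerating cells, averaged 11.79 ± 0.30 at 100 days and 11.22 ± 0.42 at 70 days. Of 22 T and natural killer cell markers and 15 B cell markers, 2 and 1 were measured, and Cd3d, Cd3e and Cd79a were below the detection filter.

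Of 19 measured ubiquitin ligases and FoxO targets of atrophy, 0 were higher and 3 lower at an unadjusted p under 0.05, with a median of -0.11 beside -0.23 in wild type muscle; of all genes 3.41% were higher and 3.97% lower at that level. Of 26 autophagy genes, 0 were higher and 3 lower, and of 28 proteasome subunits none was at that level in either direction. Among 22 regulators of myogenesis and regeneration, 2 were higher and 1 lower, with a median of 0.08; Mest, an imprinted gene of growing muscle, differed by 0.52 (SE 0.18, limma adjusted p = 0.513).

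The age difference of G93A-SOD1 muscle was then set against that of wild type littermates, as an interaction in the same limma fit. No gene was called; 230 genes, 2.53% of those tested, had an unadjusted p under 0.05 (1.61% more positive in G93A-SOD1, 0.924% more negative), and the smallest adjusted p was 0.998. In wild type muscle alone 0 genes were called for 100 against 70 days, with 1074 (11.8%) at an unadjusted p under 0.05, 40.3% of all genes above 0 and a smallest adjusted p of 0.112. The 21 macrophage markers had a median interaction of 0.33, with 20 above 0, where 52.7% of all genes lay above 0. Other lists also lay to one side. The median was 0.36 for collagens (13 of 13 above 0) and 0.19 for antigen presentation (18 of 19). It was 0.56 for denervation response (13 of 15), some of which passed the detection filter only through G93A-SOD1 arrays. For fast fibre genes it was -0.13, with 0 of 19 above 0.

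The 8 genes with the smallest p for a more positive age difference in G93A-SOD1 muscle were Lbp, Arpc1b, Yipf1, Ccnd1, Slc52a3, Fcgr4, Angptl4 and Enc1. Angptl4, an inhibitor of lipoprotein lipase, averaged 7.99 ± 0.88 at 100 days and 6.85 ± 0.95 at 70 days in G93A-SOD1 muscle, against 5.94 and 6.81 in wild type muscle, an interaction of 2.02 (unadjusted p = 0.00213). Lbp had an interaction of 1.06 (unadjusted p = 0.000398), Fcgr4, an Fc receptor of myeloid cells that was detected on none of the wild type arrays at 100 days, one of 1.09 and Ccnd1, cyclin D1, one of 0.81. The 8 in the opposite direction were Plekhj1, Car2, Dedd, Tbp, Zfp24, G0s2, Spata9 and Ppp6r2. On the 7 G93A-SOD1 arrays at 100 days, Plekhj1, Zfp24, Spata9 and Car2 were detected on 4, 4, 1 and 6. On the 8 at 70 days they were detected on 6, 6, 5 and 5. Values below detection thus enter their interactions, and also that of Enc1, detected on 6 of 7 and 5 of 8. G0s2, an inhibitor of triglyceride lipase, averaged 8.61 ± 0.42 at 100 days and 8.78 ± 0.66 at 70 days in G93A-SOD1 muscle, against 9.44 and 8.41 in wild type muscle. Mbp, a protein of myelin and here a marker of intramuscular nerve, averaged 7.41 ± 0.79 at 100 days and 7.59 ± 0.81 at 70 days in G93A-SOD1 muscle, against 9.09 and 7.87 in wild type muscle. Its interaction was -1.39 (unadjusted p = 0.012) and did not pass the adjusted test; wild type replicate 7 at 100 days held the highest value of any array, 10.52. Of 31 Schwann cell and nerve markers listed, 9 were measured, with medians of 0.16 for 100 against 70 days in G93A-SOD1 and 0.19 in wild type muscle; their median interaction was -0.07, with 3 above 0.

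**Figure D5:**
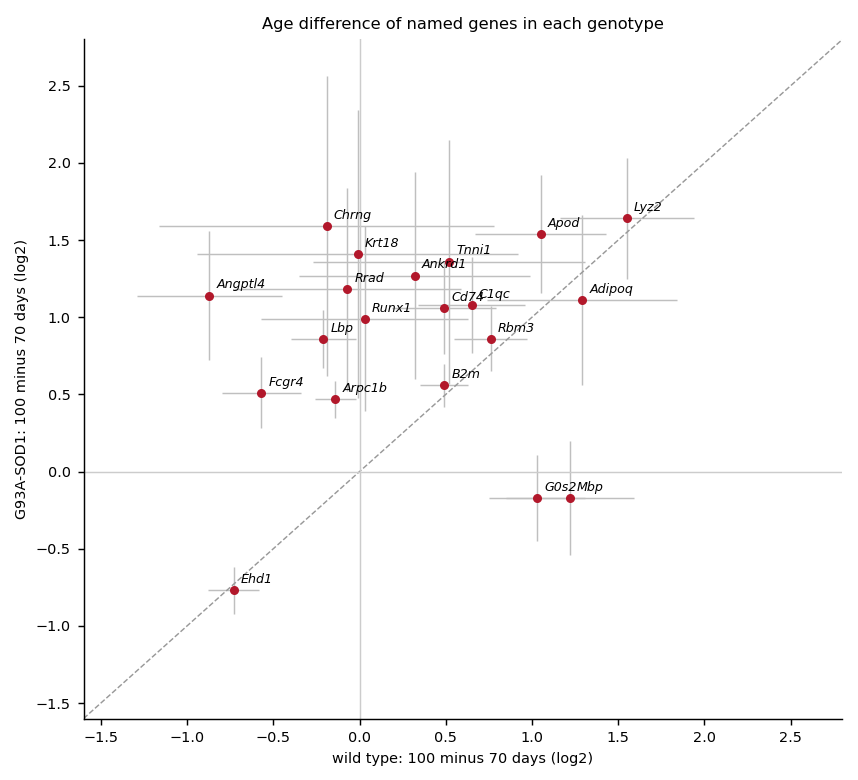
Age difference (100 minus 70 days, log2) of 20 named genes in G93A-SOD1 muscle on the vertical axis and in wild type muscle on the horizontal axis, with bars of 1 SE and a dashed line of equality. Lyz2, B2m, Rbm3 and Ehd1 lie near the line, and Chrng, Rrad and Runx1 lie above it with wide bars.

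At 70 days G93A-SOD1 and wild type muscle were compared only to place the genes named above. Only Polk, a DNA polymerase, was called (0.011% of genes tested), at 5.29 ± 0.52 in G93A-SOD1 and 6.39 ± 0.18 in wild type muscle (limma adjusted p = 0.021), and over all settings its adjusted p ran between 0.00281 and 0.606. Polk was detected on 5 of 8 G93A-SOD1 arrays at 70 days. Its wild type values at 100 days ran between 4.86 and 6.24, down into the G93A-SOD1 values. At an unadjusted p under 0.05 there were 1402 genes (15.4%), with 7.79% higher and 7.64% lower in G93A-SOD1. Chrng was detected on 4 of 8 G93A-SOD1 arrays and on no wild type array at that age. Rrad, detected on 8 of 8 G93A-SOD1 and 3 of 8 wild type arrays, differed by 3.15 (limma adjusted p = 0.0631). Taldo1, an enzyme of the pentose phosphate pathway, averaged 9.36 ± 0.47 at 100 days and 9.59 ± 0.28 at 70 days in G93A-SOD1 muscle, against 10.20 and 10.36 in wild type muscle, and its age difference was -0.23 (SE 0.15), or 0.02 without the 100 day arrays 2 and 3. These differences share the 70 day G93A-SOD1 arrays with the comparison of ages, so no overlap between the comparisons was counted.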

How the data were processed

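Muscle RNA was labelled as biotinylated cRNA and hybridized to Illumina bead arrays, per the labels' protocols. The authors deposited each probe's signal intensity with its detection p-value on every array, before normalization. Their deposited series matrix holds log2 values of the same arrays, made by steps not given in the sources used here, and served only as an alternative. The file held 24613 probes and 7 lines without an identifier, which were left out (0.00539% of the signal). Intensities of the 30 muscle arrays were background corrected and quantile normalized with neqc (offset 16) in limma 3.58.1 and R 4.3.3, which gives the log2 values reported; the number of arrays limits their precision. Probes with a detection p under 0.05 on at least 7 muscle arrays were kept (10658), and the brightest probe stood for each gene, which left 9089 genes, of them 7871 with a symbol and 1218 probes without one. Probe symbols came from the platform annotation, updated through Entrez identifiers. A single limma fit over 4 groups without covariates gave all comparisons, with Benjamini-Hochberg adjustment over all genes and calls at an adjusted p under 0.05. The fit was tested on simulated data with normal noise and the same spread in every group. That simulation does not cover genes whose spread differed between groups, such as Chrng. Replicate numbers recur at both ages, which are different animals, and were not used as pairs. Since no gene was called, named genes were those with the 5 smallest p-values in each direction, up to 2 members of each list with the smallest p, the 8 smallest interaction p-values in each direction, Sod1, Taldo1 and the muscle, Schwann cell and macrophage markers. Chosen after values were seen were Polk, Alox5ap, Chrne, Krt8, Krt18, Aif1l, Cd82, Tubb6, Gpd1, Tnnt1, Tnnc1, Atp2a2, H2-Ab1, H2-Eb1, Psme2, Serping1, Cd59a and the denervation response genes other than Ankrd1 and Rrad. The promoter motif, planned for called genes of that list, was searched in all its measured members. The members and the 49 gene lists were chosen with earlier results of these data known. The alternatives were other background correction and normalization, detection filters, every probe, array weights, trended robust variance, separate fits, a replicate block and leaving out arrays. Promoters are those of RefSeq for GRCm38.p6. Figures were drawn with matplotlib 3.10.9.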

Additional observations from a re-analysis of the deposited data

Results flagged for a closer look

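Among 154 sets of values tested, each the G93A-SOD1 arrays of one age for one gene or list, 1 held an array far from the others, where chance gives about 1 in 20. B2m, the light chain of class I molecules, stood at 12.24 in replicate 5 at 100 days, above the next array at 11.83. The gap was 0.577 of the range of its group, past the critical value of Dixon's test. For Cd74 replicate 5 was the second highest of the 100 day arrays, at 10.76.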

How the results depend on the processing

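The absence of called genes between 100 and 70 days in G93A-SOD1 muscle held under every alternative other than leaving out single 70 day arrays, where the calls ran between 0 and 5 higher and between 0 and 1 lower; genes at an unadjusted p under 0.05 ran between 182 (median centring) and 1186. For the difference between genotypes 0 genes were called in each of 26 settings, with 62 to 611 at an unadjusted p under 0.05. Wild type muscle gave 23 genes higher and 25 lower with array weights and 0 under the others. At 70 days, G93A-SOD1 against wild type gave 2 genes lower without background correction, with the deposited series matrix values, with trended robust variance and without 100 day arrays 2 and 3 (a setting added after seeing the data), and 0 with all tissues normalized together, with median centring and with no detection filter; leaving out single arrays gave 0 to 31 higher and 0 to 14 lower. The genes outside the wild type range numbered 22 above and 0 below with median centring, and 75 to 128 above and 18 to 66 below as single G93A-SOD1 arrays were left out. The replicate block, which pairs samples only by number, gave 0 calls between the ages, with 759 genes at an unadjusted p under 0.05, and 1 higher and 2 lower between the genotypes at 70 days (Rrad at 3.15, limma adjusted p = 0.0289); same-numbered arrays deviated together with r between -0.22 and 0.60, and 4 of 7 arrays at 100 days correlated best with their own number. These differences changed sign: Myog at -0.02 with the block, and, without 100 day arrays 2 and 3, Chrnb1 at -0.02, Myog at -0.16, Tnfrsf12a at -0.14, Gpd1 at 0.02 and Taldo1 at 0.02. Leaving out single arrays, Chrnb1 ran between -0.04 and 0.32, Myog between -0.06 and 0.23, Tnfrsf12a between -0.14 and 0.30 and Mbp between -0.37 and 0.04. The cause of these changes was not tested. With 7 and 8 arrays and SDs of up to 3.59 log2 units at 70 days, a difference such as that of Chrng cannot be told from none.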
